A study of Rattus norvegicus with 4 samples.

Results

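Flt3 dendritic cells were picked out of droplet single-cell RNA-seq data on rat subcutaneous fascia by the unique molecular identifiers (UMIs, 1 per captured transcript) counted in each cell barcode. A cell was kept with at least 500 genes detected and at most 20% of its UMIs from mitochondrial genes. A kept fascia cell was then taken as a Flt3 dendritic cell with at least 20 UMIs of Cd74, at least 1 UMI of Flt3, fewer than 5 UMIs over C1qa, C1qb and C1qc, and none of Cd3d, Cd3e, Cd3g or Cd79b. This rule gave 1047 cells out of 13820 kept fascia cells and 37722 kept cells in the series, 260 in fascia replicate 1 and 787 in fascia replicate 2. Of these, 47 cells (9 and 38) held a UMI of Xcr1 or Clec9a and are described apart, and 1000 (251 and 749) held none. The study set wild-type rat skin (2 libraries) beside wild-type rat subcutaneous fascia (2 libraries), the loose sheet of connective tissue under the skin, which its title places at the abdominal midline. Residual blood and fat were washed off, the minced tissue was digested with collagenase and elastase, and red cells and dead cells were removed before loading. The labels give no treatment, age or sex and do not say whether the libraries of a tissue come from different animals, so p-values measure the spread between libraries, which may be technical. In skin, 99 cells met the same rule, 71 in replicate 1 and 28 in replicate 2.

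Dendritic cells take up antigen, load its peptides on MHC molecules and carry them to T cells. Flt3, the receptor for FLT3 ligand, is kept through their development, and Cd74, the invariant chain, chaperones MHC class II. Conventional type 1 cells (cDC1), marked by XCR1 and CLEC9A, are known for presenting antigen from dead cells to CD8 T cells, type 2 cells (cDC2) for activating CD4 T cells, and plasmacytoid cells for making type I interferon. In the epidermis the related Langerhans cells carry langerin, encoded by Cd207.

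The 4 libraries held 83852172 to 95777810 UMIs, and the kept cells had medians of 2352.5 to 12908 UMIs. The Flt3 dendritic cells were close in depth between the fascia libraries, with median counts of 13643.5 and 13739 UMIs and 3310 and 3276 genes, but the skin cells of the same rule were shallower, with medians of 8514 and 8989 UMIs. Mitochondrial transcripts made up 3.68% and 3.57% of the UMIs of the Flt3 dendritic cells in fascia, and 3.68% and 3.75% in the skin cells of the rule. No barcode of a cell of the rule was also that of a cell of the rule in another library, while pairs of libraries shared 16 to 35 kept barcodes. Whether the shared barcodes included cells of the rule in either library was not checked. A doublet caller marked 14 (5.38%) and 33 (4.19%) of the fascia cells of the rule. In skin, where the caller's own threshold failed and the highest scores were marked instead, it marked 14 (19.7%) and 0.

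For comparison there were 3 other sets of fascia cells, and since the rule chose the cells on these values, the levels are descriptions without a test. Levels are counts per 1000000 UMIs of a set (CPM), given as fascia replicate 1 and fascia replicate 2, and are compared only between sets for 1 gene. Flt3 stood at 315 and 362 CPM in the Flt3 dendritic cells, at 15 and 68.3 CPM in C1q cells (254 and 387 cells), and at 0.305 and 0.64 CPM in fibroblast-gated cells (2520 and 659 cells). The C1q cells had at least 5 UMIs of the C1q genes, typical of macrophages, and met the limits on Cd74, Cd3 and Cd79b whatever their Flt3. The fibroblast-gated cells had at least 1 UMI of Pdgfra, at least 5 of Col1a1 and none of Ptprc. A Flt3 UMI was found in 0.2% and 1.06% of those fibroblast-gated cells, at median depths of 17129.5 and 16701 UMIs. The last set held 295 and 316 cells that met the rule except that no Flt3 UMI was found.

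Zbtb46 and Bcl11a were higher in these cells than in the other sets, and several macrophage genes were lower than in the C1q cells, but the list of dendritic cell transcription factors as a whole was not higher. It summed to 3918 and 3877 CPM, against 5185 and 4712 CPM in the cells without Flt3 and 4806 and 4525 CPM in the C1q cells. Zbtb46, a transcription factor of conventional dendritic cells, was at 52.5 and 84.1 CPM against 13.9 and 23.6 CPM in the cells without Flt3 and 8.28 and 19.9 CPM in the C1q cells. Bcl11a, a transcription factor needed for dendritic cell development, was at 122 and 131 CPM against 14 and 14.9 CPM in the C1q cells. In both libraries both genes were highest in the Flt3 dendritic cells. Among macrophage genes Cd163, the haemoglobin scavenger receptor, was at 7.51 and 6.21 CPM against 745 and 1083 CPM. Csf1r, the receptor for the macrophage growth factor CSF1, was at 68.6 and 100 CPM against 948 and 1176 CPM. Lyz2, encoding lysozyme, remained at 5194 and 4316 CPM, below the 18192 and 11036 CPM of the cells without Flt3. Monocyte genes summed to 6712 and 5959 CPM, near the 6236 and 4986 CPM of all other kept fascia cells and below the 20151 and 13269 CPM of the cells without Flt3. In the fibroblast-gated cells the same list summed to 6394 and 8826 CPM, so in replicate 2 it was higher there. B and plasma cell genes summed to 237 and 181 CPM against 160 and 119 CPM in all other kept fascia cells, and T and NK cell genes to 190 and 184 against 131 and 311 CPM. Of the markers of other cell types, keratinocyte genes came to 12.7 and 9.79 CPM, neutrophil genes to 4.4 and 8 CPM, endothelial genes to 104 and 146 CPM and mural genes to 136 and 183 CPM. Fibroblast genes came to 3011 and 966 CPM against 32207 and 15288 CPM in all other kept fascia cells. Haemoglobin genes, which mark red cells, came to 364 and 393 CPM against 999 and 2217 CPM.

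**Figure D1:**
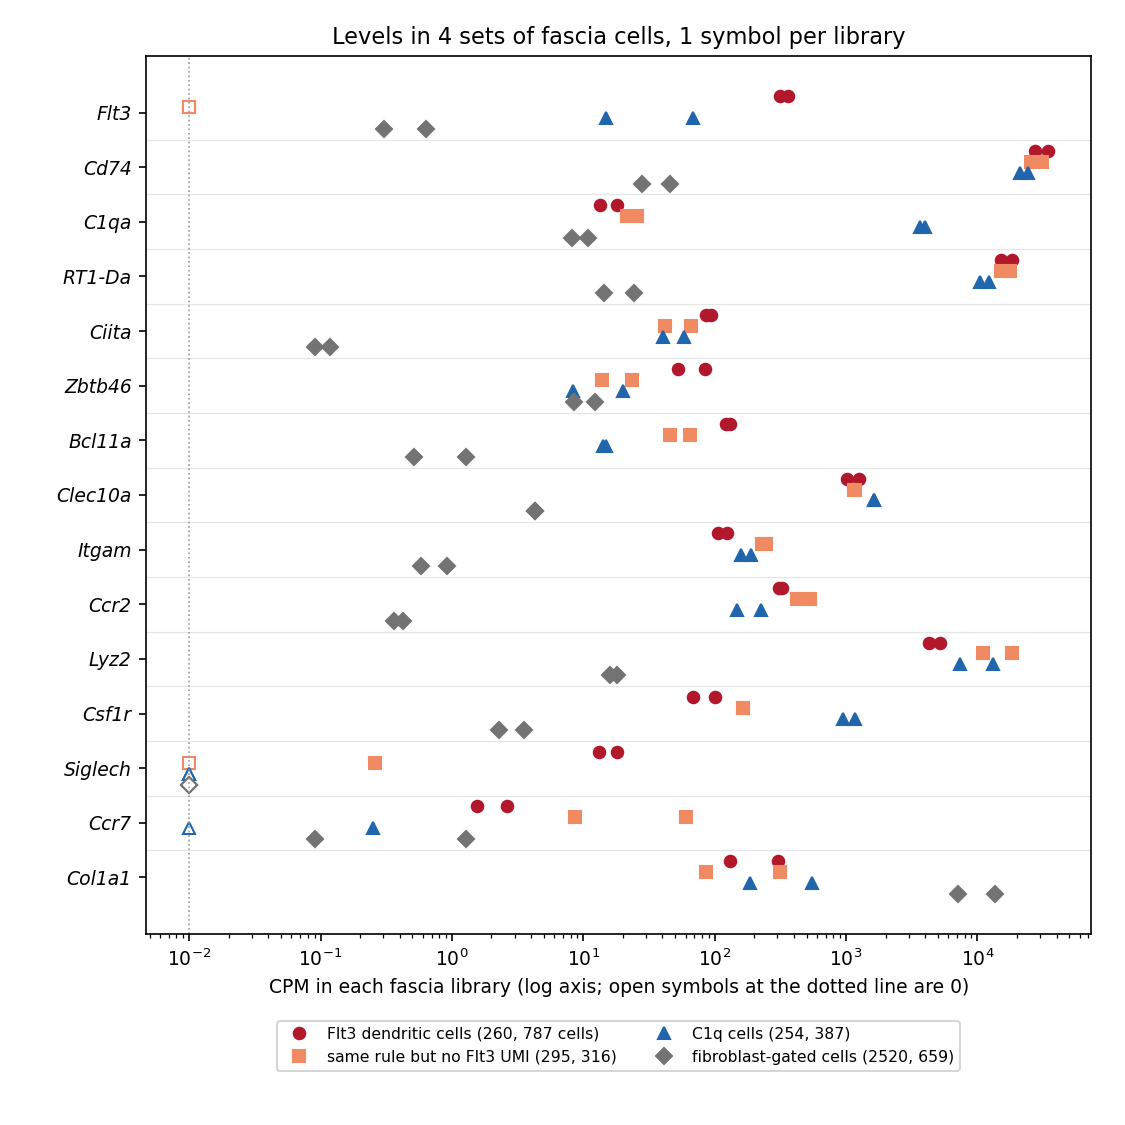
Levels of 15 genes in CPM (log axis) in 4 sets of fascia cells, with 1 symbol per library; Flt3, Cd74 and C1qa took part in choosing the sets. Zbtb46 and Bcl11a lie highest in the Flt3 dendritic cells in both libraries, while Csf1r lies highest in the C1q cells.

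Cells near the edge of the rule were few except at Flt3. The rule took in 64 and 159 cells with 1 Flt3 UMI, 116 and 349 with 2 to 4, and 80 and 279 with 5 or more. The cells just outside, with none, numbered 295 and 316. Slamf7 (a receptor of the SLAM family) was at 205 and 183 CPM in the cells with 1 Flt3 UMI and at 31.1 and 68.2 CPM in those with 0. Lyz2 ran the other way, from 2970 and 2955 CPM with 5 or more Flt3 UMIs through 10606 and 6570 CPM with 1 to 18192 and 11036 CPM with 0. At the Cd74 threshold, 0 and 6 cells held 20 to 29 UMIs, and 0 and 8 cells outside it held 10 to 19. At the C1q threshold, 5 and 22 cells held 3 or 4 UMIs, and 0 and 8 cells outside held 5 to 9.

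MHC class II genes were higher in these cells than in the C1q cells for the main chains. RT1-Da, RT1-Db1 and RT1-Ba encode the rat class II chains, members of a multigene family whose reads may be split between copies. RT1-Da was at 18191 and 15195 CPM, RT1-Db1 at 15772 and 13692 CPM, and RT1-Ba at 11566 and 9470 CPM. In the C1q cells RT1-Da was at 12248 and 10527 CPM, and in the cells without Flt3 it was about as high as in the Flt3 dendritic cells, at 17736 and 15116 CPM. The peptide-loading gene RT1-DMb was at 696 and 638 CPM, its modulator RT1-DOa at 203 and 160 CPM, and Ciita, the master activator of class II genes, at 85.7 and 94.4 CPM. RT1-DOa and Ciita were above both other antigen-presenting sets in each library: RT1-DOa was at 95.2 and 94.6 CPM in the cells without Flt3 and at 51.9 and 57.7 CPM in the C1q cells. Ctss, encoding the protease that trims the invariant chain, was at 796 and 692 CPM, and Ifi30, a thiol reductase of antigen processing, at 1153 and 1356 CPM.

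The genes with the largest ratio over all other kept fascia cells were Slamf7, at 270 and 208 CPM against 3.22 and 8.5 CPM (40.8-fold), and Cd7, at 348 and 337 CPM (21.5-fold). Next came RT1-DOa (21.3-fold), Napsa, which encodes an aspartic protease, at 744 and 738 CPM (18.7-fold), and Clec7a, the beta-glucan receptor dectin-1, at 148 and 108 CPM (17.5-fold). Wdfy4, needed for cross-presentation, was at 214 and 273 CPM (14.7-fold). Ccl17, a chemokine that draws CCR4-bearing T cells, was at 568 and 597 CPM (14-fold). Bcl11a followed at 13-fold.

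Costimulatory genes were detected, and Ccr7, Fscn1 and Lamp3, genes of dendritic cells on their way to lymph nodes, were at or near 0. Cd83, a surface marker of activated dendritic cells, was at 1965 and 1737 CPM, and the costimulators Cd80, Cd86 and Cd40 were at 135 and 151, 106 and 137, and 56.7 and 45.2 CPM. Ccr7, the receptor that leads dendritic cells to lymph nodes, was at 1.55 and 2.64 CPM. The actin-bundling gene Fscn1 was at 4.66 and 3.66 CPM, and Lamp3 had no UMI. The list of mature dendritic cell genes as a whole, which also holds Cd83, Cd80, Cd86, Cd40 and Ccl17, was not low. It summed to 3567 and 3428 CPM, against 2315 and 3961 CPM in the cells without Flt3 and 1671 and 2001 CPM in the C1q cells. Ccr7 UMIs were found in 1.54% and 1.91% of the cells and in 1.71% and 0.152% of the fibroblast-gated cells, at median depths of 13643.5 and 13739 against 17129.5 and 16701 UMIs, so in replicate 1 the share was no higher than in cells that should lack the gene. Cd207 had no UMI in the Flt3 dendritic cells of either library, and the human cDC2 marker Fcer1a had none either.

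The inflammatory cytokine Il1b was at 2594 and 2026 CPM, above the 944 and 1212 CPM of the C1q cells. Il12a had no UMI and Il12b, the other chain of IL-12, was at 0.776 and 1.28 CPM. Tnf was at 20.4 and 21.1 CPM and Il10 at 1.04 and 2.47 CPM, the latter against 66.6 and 105 CPM in the C1q cells. The cells thus held Il1b and Ccl17 transcripts with few of the IL-12 or IL-10 genes. Among receptors, Ccr2, which brings cells out of the blood toward CCL2, was at 308 and 326 CPM and had a UMI in 90.8% and 88.8% of the cells, against 0.635% and 0.607% of the fibroblast-gated cells. Csf2ra, the GM-CSF receptor chain, was at 254 and 216 CPM. Of the pattern receptors, Clec7a, Clec12a (56.4 and 56.1 CPM), Tlr2 (50 and 50.6 CPM) and the inflammasome sensor Nlrp3 (65.5 and 126 CPM) were detected, while Tlr9, the DNA sensor, was at 0.518 and 1.11 CPM.

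A few genes differed between the fascia libraries. Adgre1, encoding the macrophage antigen F4/80, was at 124 CPM in replicate 1 and 45.1 CPM in replicate 2. Plac8 went the other way, from 162 to 474 CPM, as did Ly6c, from 4.66 to 28.3 CPM. Lgals9, encoding galectin-9, was at 59 and 21.6 CPM. With 1 library on each side these differences have no replicate check.

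The 47 cells with a UMI of Xcr1 or Clec9a were chosen on those genes and are described without a test. Of the 9 and 38 cells, 6 and 20 held Xcr1, 8 and 37 held Clec9a, and 5 and 19 held both. They were deeper, with medians of 24888 and 19642.5 UMIs against 13485 and 13525 UMIs in the rest, and 1 of them was marked as a doublet. A Clec9a UMI was found in 0.0397% and 0% of the fibroblast-gated cells and an Xcr1 UMI in none. Thinned to 4000 UMIs a cell, with 3 and 13 shallower cells left out, the share with either gene went from 3.5% and 4.91% to 1.56% and 2.84%.

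Other cDC1 genes were higher in these 47 cells. Irf8 and Batf3, transcription factors required for cDC1, were at 166 and 210 CPM against 10.1 and 17.9 CPM, and at 256 and 323 CPM against 80.5 and 69.1 CPM. The RNA sensor Tlr3 was at 80.5 and 91 CPM against 9.58 and 8.34 CPM, and Wdfy4 at 839 and 1086 CPM against 178 and 220 CPM. The adhesion gene Cadm1 was at 327 and 442 CPM against 33.7 and 28.7 CPM (13.9-fold). The largest ratios were those of Tlr12, a receptor for microbial profilin, at 147 and 91 CPM against 0 and 0.363 CPM (381-fold, 95% counting interval 144 to 1426), and Gcsam, at 190 and 259 CPM against 0.821 and 3.54 CPM (85-fold). Kit, the stem cell factor receptor, was at 80.5 and 144 CPM against 1.1 and 5.26 CPM (30.7-fold). Slpi, a secreted protease inhibitor, was at 3321 and 3432 CPM against 139 and 150 CPM (23.2-fold). The lysosomal thioesterase gene Ppt1 was at 1075 and 1048 CPM against 55.9 and 59.5 CPM (18-fold). The immunoproteasome genes Psmb8 and Psmb9 were also higher, at 730 and 588 against 251 and 281 CPM and at 512 and 440 against 147 and 165 CPM. In each of these genes both libraries with Xcr1 or Clec9a lay above both without.

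Several cDC2 and inflammatory genes were higher in the 1000 cells without Xcr1 or Clec9a than in the 47 cells with them. The cDC2 list summed to 4689 and 4486 CPM in the 1000 cells and to 1279 and 1179 CPM in the 47. It was higher still in the cells without Flt3, at 5496 and 5298 CPM, and in the C1q cells, at 5583 and 5293 CPM. Clec10a, a galactose-type lectin, was at 1322 and 1071 CPM against 261 and 302 CPM in the 47 cells. Irf4 was at 41.1 and 33.2 CPM against 0 and 4.2 CPM, and Sirpa, the CD47 receptor, at 83.8 and 72.8 CPM against 4.74 and 4.2 CPM. Il1rl1, the IL-33 receptor, was at 303 and 199 CPM against 0 and 1.4 CPM (208-fold, 95% counting interval 37.4 to 8235). Ccl17 was at 600 and 636 CPM against 4.74 and 8.4 CPM (82.9-fold), Ccl2, the CCR2 ligand, at 680 and 1075 against 14.2 and 19.6 CPM (53.2-fold), and the mannose receptor Mrc1 at 243 and 223 against 9.48 and 5.6 CPM (35.1-fold). Il1b was at 2731 and 2140 CPM against 227 and 272 CPM, and Lyz2 at 5442 and 4547 against 910 and 756 CPM. Cd74 itself was lower in the Xcr1 or Clec9a cells, at 18435 and 18168 CPM against 35571 and 27926 CPM, and Flt3 was higher, at 749 and 833 against 290 and 331 CPM. The cells with and without Xcr1 or Clec9a did not overlap between libraries in any of these genes.

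**Figure D2:**
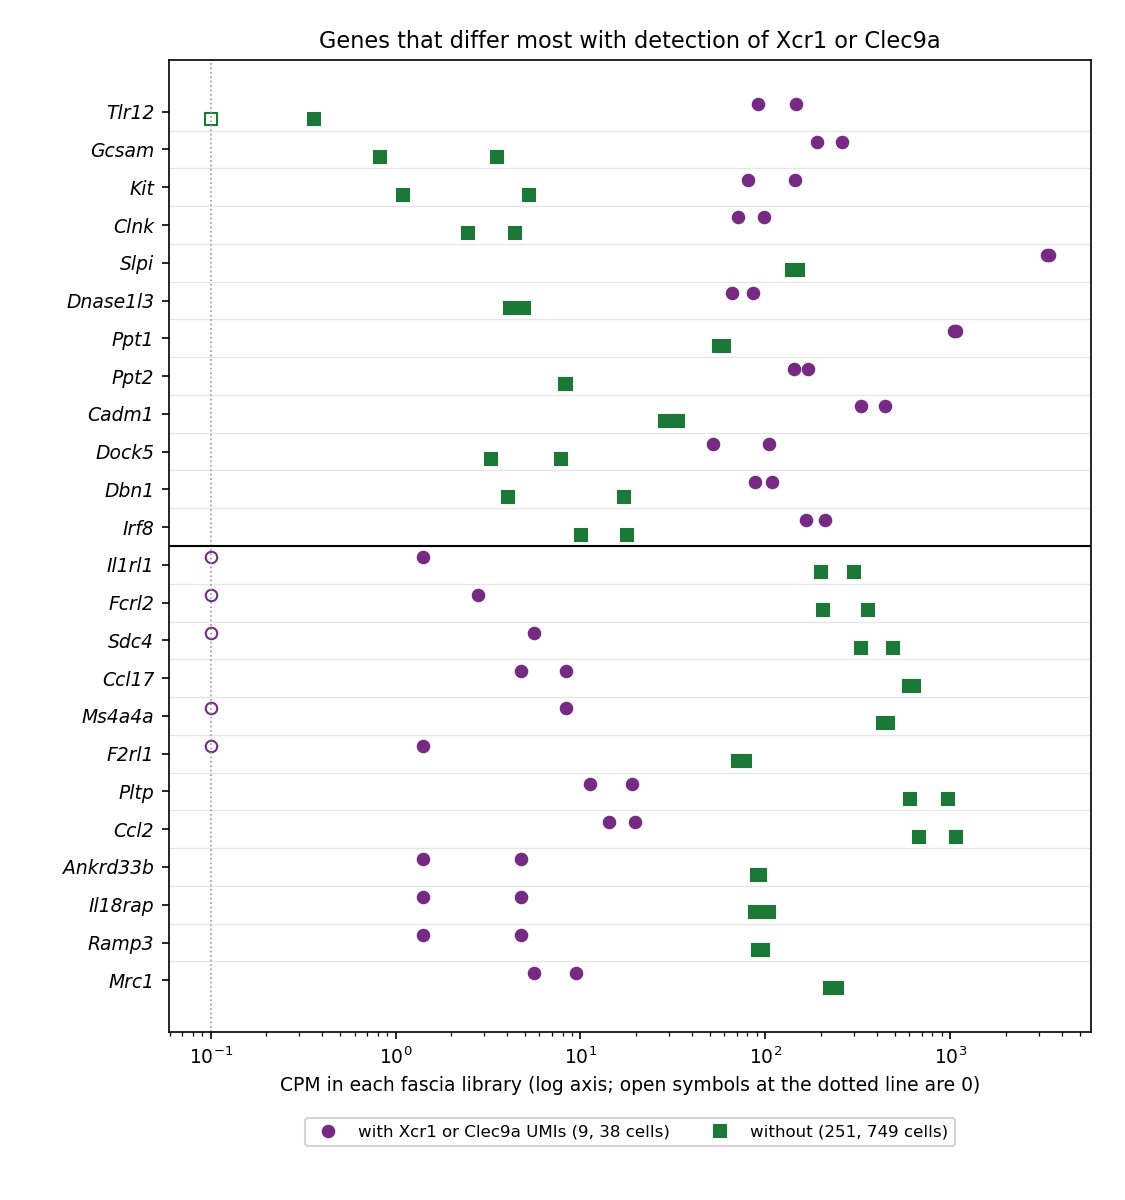
CPM (log axis) of the 12 genes with the largest ratio in each direction between cells with and without Xcr1 or Clec9a UMIs, 1 symbol per fascia library; open symbols are 0. Tlr12 and Slpi lie higher with, Il1rl1 and Ccl17 higher without, and no gene shown overlaps between the sets.

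Clustering the 1047 cells by expression gave 12 groups, each found in both libraries. The groups describe the mixture within the rule, and their leading genes define them and carry no test. Group 7 (43 cells, 2.31% and 4.7% of the library's cells) held 40 of the 47 Xcr1 or Clec9a cells and was cDC1-like, with Clec9a at 247 CPM, Xcr1 at 91.7 CPM and Batf3 at 317 CPM. Group 9 (32 cells, 2.69% and 3.18%) was plasmacytoid-like. In it Siglech, a lectin of rodent plasmacytoid cells, was at 549 CPM against 2.17 CPM in the other Flt3 dendritic cells. The transcription factors Tcf4 and Spib were at 5065 and 381 CPM against 302 and 4.41 CPM, and the homing receptor Ccr9 at 195 against 0.592 CPM. Group 9 also led in Jchain, a gene of antibody-secreting cells and rodent plasmacytoid cells, at 2213 against 10.3 CPM. It had the highest Flt3 level of the groups (1154 CPM), the lowest Cd74 level (6693 CPM) and no cell marked as a doublet. Group 6 (47 cells, 2.69% and 5.08%) shared Tcf4 (2359 CPM), Runx2 (1001 CPM) and Flt3 (906 CPM) with it but held Cx3cr1 at 180 CPM, against 0 in group 9, and Siglech at 42.8 CPM. Group 6 was given no cell type name.

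The larger groups differed in monocyte, chemokine and stress genes. Group 0 (180 cells, 13.5% and 18.4%) led in Sdc4, Clec7a, Ccl17 and Ccl2, with Ccl17 at 1251 CPM and Ccl2 at 1920 CPM. Group 3 (136 cells, 12.7% and 13.1%) led in the T cell chemokine Ccl22 (67.1 CPM) and had Il1b at 3767 CPM and Cd83 at 3098 CPM. Group 2 (137 cells, 8.46% and 14.6%) had Zbtb46 at 206 CPM, the highest of the groups, and Lyz2 at 1747 CPM. Group 1 (146 cells, 8.85% and 15.6%) led in Fcnb, Lst1 and Ly6c and had Lyz2 at 9980 CPM and Il1b at 522 CPM; its Plac8 level was 164 CPM in replicate 1 and 1322 CPM in replicate 2. Group 5 (125 cells, 18.5% and 9.78%) had Lyz2 at 11407 CPM, the transcription factor gene Cebpb at 1088 CPM against 133 CPM in the other cells, and the lowest Flt3 level, 143 CPM. Group 4 (127 cells, 21.9% and 8.89%) led in the chaperone gene Hsph1 (1652 against 422 CPM) and the stress gene Atf3 (731 against 195 CPM). Groups 4 and 5 took the larger share in replicate 1 and groups 1 and 2 in replicate 2.

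Another 3 small groups held genes of other programmes. Group 11 (17 cells, 1.54% and 1.65%) led in cell cycle genes, with Top2a at 707 CPM and Cdk1 at 303 CPM. Group 8 (39 cells) held the mural genes Rgs5 (215 CPM) and Des (441 CPM), and 30 of its cells were marked as doublets. Group 10 (18 cells) held Col1a1 at 4421 CPM, and 14 of its cells were marked. Between them groups 8 and 10 held 44 of the 47 marked fascia cells of the rule.

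**Figure D3:**
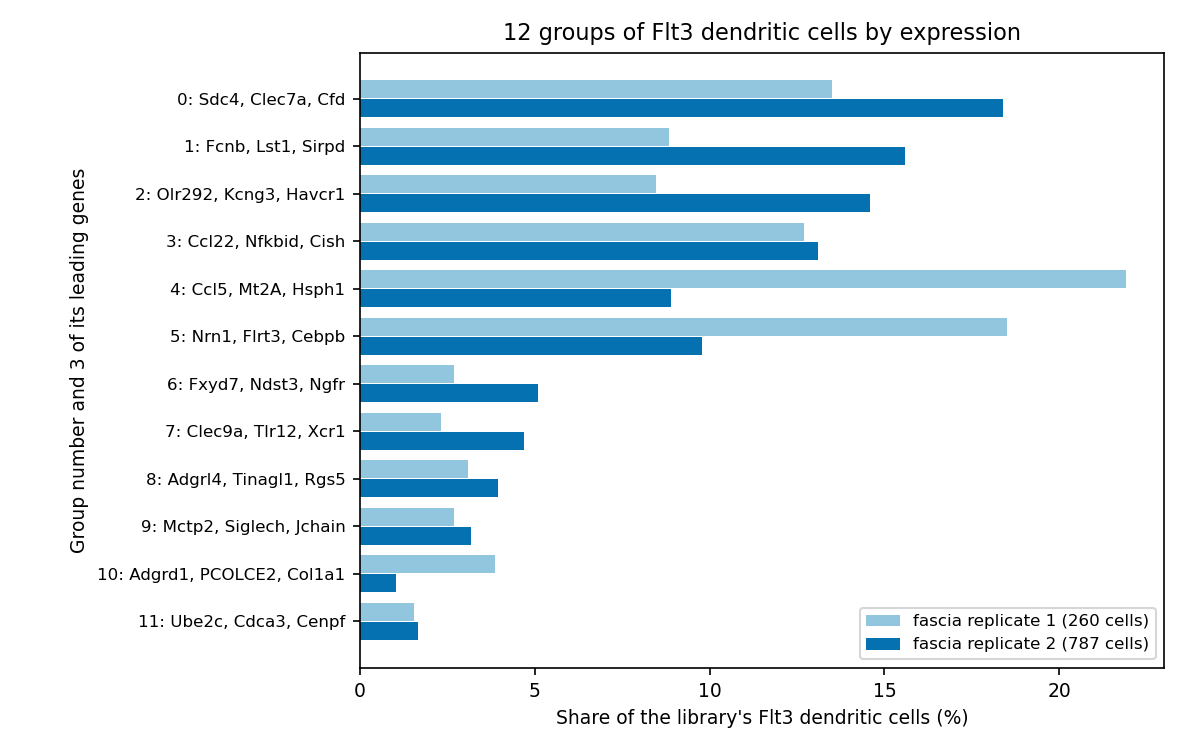
Share of each library's Flt3 dendritic cells (%) in 12 groups by expression, 1 bar per fascia library, labelled with 3 of the leading genes. Groups 4 and 5 are larger in replicate 1 and groups 1 and 2 in replicate 2, while group 11 takes 1.54% and 1.65%.

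Between tissues, the cells of the rule made up 3.82% (95% exact binomial interval 3.37 to 4.3) and 11.2% (10.5 to 12) of kept cells in fascia and 0.952% (0.744 to 1.2) and 0.17% (0.113 to 0.246) in skin. Both fascia libraries lay above both skin libraries, with means of 7.52% and 0.561% and a difference of 6.96 percentage points. The exact permutation test, two-sided, gave p = 0.33, the smallest value that 2 libraries against 2 allow. Of kept cells with a UMI of the leukocyte gene Ptprc, the share was 12.5% (11.1 to 14) and 25.1% (23.6 to 26.6) in fascia and 14.5% (11.2 to 18.2) and 3.72% (2.37 to 5.52) in skin. There the tissues overlapped, and the exact permutation p was 0.67. Intervals cover counting error only. No skin cell of the rule held Xcr1 or Clec9a, and 0 of 71 and 0 of 28 cells allow shares of up to 4.23% and 10.7%, against 3.46% (1.59 to 6.47) and 4.83% (3.44 to 6.57) in fascia (exact permutation p = 0.33). Those limits are 3 cells of the total. The upper bounds of the exact binomial interval, 5.06% and 12.3%, lie above both fascia shares, and the skin cells were shallower, so a difference was not detectable at this depth.

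Many skin cells of the same rule held Cd207, the gene of Langerhans cells. Cd207 UMIs were found in 44 of 71 (62%) and 14 of 28 (50%) skin cells, at 4079 and 1709 CPM, and in none of the fascia cells. Keratinocyte genes, those of the epidermal cells around Langerhans cells, summed to 9606 and 15203 CPM in the skin cells of the rule. They summed to 11754 and 20825 CPM in the skin cells with Cd207 and to 5893 and 1678 CPM in those without. The comparison between tissues is one between the cells this rule finds in each. Each count below is followed by the number of its genes still called after cells with a Cd207 UMI were left out, a setting chosen after the data were seen that leaves 27 and 14 skin cells. Of the 27, 18 still held an Epcam UMI. Leaving out cells with Cd207 or Epcam leaves 9 and 11 skin cells and 58 called genes, and of the 149 called genes of the lists and the single genes described here 124 could be tested and 15 were still called. Among those named below these were Ccr2, Clec4a3, Cd226, Slpi, Ccr7, Nr4a3, Klf4, Jun, Atf3, Hspa8 and Hsp90aa1.

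Counts were summed per library and tested with edgeR's quasi-likelihood test, in which adjusted p is the Benjamini-Hochberg value over all 10622 genes tested and a gene is called below 0.05. Of these, 2230 (21.0%) were called, 992 higher in fascia (9.34%) and 1238 lower (11.7%). The count was 1244 without fascia replicate 1, 1336 without fascia replicate 2 and 3387 without skin replicate 2, with the lone library then assumed to vary like the other tissue's. It was 951 with at least 2 Flt3 UMIs required. Without cells holding Cd207 it was 521 of 9965 genes tested, 135 higher and 386 lower. These are the all-gene counts beside the calls kept without Cd207 cells below. Log2 changes are fascia over skin, with the standard error (SE) of the fit. A gene with no UMI in 1 tissue could only be called higher in the other, through which it passed the filter on low counts.

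Part of the monocyte and cDC2 genes rose in fascia. Ccr2 was at 308 and 326 CPM in fascia and 1.41 and 11.5 CPM in skin, which is 6.02 on the log2 scale (SE 0.57, adjusted p = 0.00476). Clec4a3 and Clec4a1, inhibitory lectin receptors of a family with near copies, were at 240 and 247 CPM against 1.41 and 8.64 CPM (log2 change 5.98, adjusted p = 0.00476), and at 161 and 168 CPM against 2.82 and 11.5 CPM (log2 change 4.83, adjusted p = 0.00495). Lyz2 was at 5194 and 4316 CPM against 577 and 758 CPM (log2 change 2.87, SE 0.24, adjusted p = 0.00476). In all 4 genes the fascia libraries lay above the skin libraries, and the calls were kept without cells holding Cd207, with log2 changes of 4.33 for Ccr2, 4.3 for Clec4a3, 3.41 for Clec4a1 and 1.44 for Lyz2. Without cells holding Cd207 or Epcam, Ccr2 (log2 change 4.44) and Clec4a3 (3.49) were still called, and Clec4a1 (2.51, adjusted p = 0.0968) and Lyz2 (0.91, adjusted p = 0.154) were not. Clec10a was at 1264 and 1024 CPM against 145 and 274 CPM (log2 change 2.51, SE 0.34, adjusted p = 0.00889). Its call was lost without those cells (log2 change 1.04, adjusted p = 0.24), where the remaining skin cells held 246 and 873 CPM. Of the 17 cDC2 genes tested, 8 rose, 2 fell and 7 were not called, against 9.34% called higher and 11.7% lower among all genes. Of these calls 2 and 2 were still made without Cd207 cells, where 135 of 9965 genes were called higher and 386 lower. Of the 12 monocyte genes tested, 7 rose and none fell, of which 4 were still called (Ccr2, Lyz2, Treml4 and Fn1). The 7 include Fn1 and Vcan, and 3 of the 12 had no UMI in skin and could only rise. Fibroblast-gated fascia cells held the monocyte list at 6394 and 8826 CPM, against 6712 and 5959 CPM in the Flt3 dendritic cells. The median log2 change was 1.67 for the cDC2 genes and 3.69 for the monocyte genes (2.53 with genes at 0 in skin set at their bound), against 0.09 over all genes.

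The 2 cDC2 genes that fell were Klf4, a transcription factor, and Il1r2, the decoy receptor for IL-1. Klf4 was at 283 and 250 CPM in fascia and 840 and 954 CPM in skin (log2 change -1.72, SE 0.22, adjusted p = 0.0075), a call lost without fascia replicate 2. Il1r2 was at 35.2 and 32.4 CPM against 542 and 386 CPM (log2 change -3.76, SE 0.3, adjusted p = 0.00391). Both stayed called without Cd207 cells.

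Among cDC1 genes 15 were tested, and 9 rose, 1 fell and 5 were not called, with 3 and 1 of them still called without Cd207 cells. Of all genes tested, 9.34% were called higher and 11.7% lower. Batf3 was at 90.1 and 84.5 CPM against 1.41 and 5.76 CPM, 30.3-fold higher on 3 skin UMIs (95% counting interval 10.3 to 147, adjusted p = 0.00485). Naaa, a lysosomal amidase gene, was at 125 and 116 CPM against 15.5 and 5.76 CPM (log2 change 3.35, SE 0.39, adjusted p = 0.00625). The cells without Xcr1 or Clec9a also held Batf3, at 80.5 and 69.1 CPM. Tlr3 was at 13.5 and 13.4 CPM against 0 and 0, at least 4.72-fold higher (adjusted p = 0.021), though fibroblast-gated fascia cells held it at 22.7 and 19.9 CPM. Clec9a was at 8.02 and 14.9 CPM against 0 and 0, at least 4.65-fold higher (adjusted p = 0.048). The Clec9a call was lost without skin replicate 1, without fascia replicate 1, without doublet-marked cells and with at least 2 Flt3 UMIs. Without Cd207 cells neither Clec9a (adjusted p = 0.194) nor Tlr3 (adjusted p = 0.117) was called. Xcr1 was not called (adjusted p = 0.0751). Irf8 was not called either, at 18.6 and 29.5 CPM against 12.7 and 17.3 CPM (log2 change 0.78, adjusted p = 0.241). Nor were Id2 (log2 change 0.50), Itgae (1.34) and Rab7b (-0.97). The gene that fell was Cadm1, at 49.7 and 53.9 CPM against 283 and 354 CPM (log2 change -2.58, SE 0.23, adjusted p = 0.00476). Of the 15 genes 6 had no UMI in skin and could only rise. The median log2 change was 3.35, or 1.64 with those 6 set at their bound, against 0.09 over all genes.

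Of the 15 class II and processing genes, 9 rose and none fell, against 9.34% called higher and 11.7% lower among all genes. Their median log2 change was 1.13. RT1-Da was at 18191 and 15195 CPM against 8515 and 7034 CPM (log2 change 1.13, SE 0.23, adjusted p = 0.0255), and RT1-DMb at 696 and 638 CPM against 144 and 104 CPM (log2 change 2.43, SE 0.28, adjusted p = 0.00601). Without Cd207 cells, RT1-DMb alone of the 9 was still called (log2 change 2.12, adjusted p = 0.035), and RT1-Da had a log2 change of 0.86 (adjusted p = 0.118). The RT1-Da call was also lost without fascia replicate 1 and without doublet-marked cells (adjusted p = 0.11). In the list of class I and cross-presentation genes, 6 of 14 rose and 1 fell, of which 1 and 1 were still called. The 1 of 14 that fell was a smaller share than the 11.7% called lower among all genes. The immunoproteasome gene Psmb10 was at 112 and 120 CPM against 15.5 and 11.5 CPM (log2 change 3.06, SE 0.3, adjusted p = 0.005), and Nlrc5, an activator of class I genes, fell from 138 and 17.3 CPM to 6.99 and 7.49 CPM (log2 change -3.53, SE 0.79, adjusted p = 0.0316), a call lost without skin replicate 1 and without doublet-marked cells (adjusted p = 0.051).

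Of 11 costimulation and checkpoint genes tested, 6 rose and 1 fell, against 9.34% called higher and 11.7% lower among all genes, with 1 and 1 still called without Cd207 cells. Cd80 was at 135 and 151 CPM against 26.7 and 20.2 CPM (log2 change 2.58, SE 0.29, adjusted p = 0.00548; 1.49 and adjusted p = 0.0616 without Cd207 cells). Cd83 was at 1965 and 1737 CPM against 1094 and 859 CPM (log2 change 0.94, SE 0.25, adjusted p = 0.0483). Without Cd207 cells its log2 change was -0.16, and the call was also lost without either fascia library and without doublet-marked cells (adjusted p = 0.156). The checkpoint receptor gene Havcr2 fell, from 436 and 450 CPM in skin to 63.7 and 76 CPM (log2 change -2.63, SE 0.24, adjusted p = 0.00476), and was still called. Of 21 cytokine and chemokine genes tested, 5 rose and 2 fell, of which 0 and 1 were still called. Of the 21, 3 had no UMI in skin and could only rise, and Il33 of these is among the 5. The 2 of 21 that fell were a smaller share than the 11.7% called lower among all genes. Il1b was at 2594 and 2026 CPM against 98.5 and 216 CPM (log2 change 3.95, SE 0.41, adjusted p = 0.005; 2.6 and adjusted p = 0.0692 without Cd207 cells). Cxcl2, a neutrophil chemokine, was at 82 and 72.7 CPM against 253 and 331 CPM (log2 change -1.88, SE 0.23, adjusted p = 0.00716). Its call was lost without doublet-marked cells (adjusted p = 0.462).

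Ccr7 and several transcription factor genes were lower in fascia. Ccr7 was at 1.55 and 2.64 CPM against 144 and 46.1 CPM (log2 change -5.43, SE 0.64, adjusted p = 0.00625), and at -5.94 (adjusted p = 0.00572) without Cd207 cells. It was the 1 gene of the 19 tested mature dendritic cell genes that fell, while 7 rose, among them Ccl17 (log2 change 2.5, adjusted p = 0.0162), and none of the 7 was still called without Cd207 cells. Of 23 dendritic cell transcription factor genes, 2 rose, 6 fell and 15 were not called, and 1 and 3 of those were still called. Nr4a3, an inducible nuclear receptor, was at 380 and 396 CPM against 1896 and 1060 CPM (log2 change -1.91, SE 0.35, adjusted p = 0.0196). Zbtb46 was not called, at 52.5 and 84.1 CPM against 98.5 and 14.4 CPM (log2 change 0.14, adjusted p = 0.905), and the skin libraries lay on both sides of the fascia libraries. In the list of chemokine and growth factor receptors, 6 of 16 rose and 2 fell, of which 1 and 2 were still called. Of the 16, 2 had no UMI in skin and could only rise. Among all genes 9.34% were called higher and 11.7% lower. The 2 of 23 transcription factor genes that rose and the 2 of 16 receptor genes that fell were near those shares.

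Of 18 pattern recognition genes tested, 10 rose and none fell, against the 9.34% called higher among all genes. Of the 18, 5 had no UMI in skin and could only rise, and the 10 include Tlr3, Tlr6, Tlr11 and Clec9a of these. The median log2 change was 2.54, or 2.01 with the 5 set at their bound. Without Cd207 cells 2 of the 10 were still called. These were Clec7a, at 148 and 108 CPM against 16.9 and 23.1 CPM (log2 change 2.75, SE 0.33, adjusted p = 0.00629), and Syk, the kinase that signals below it, at 96.5 and 79.5 CPM against 23.9 and 14.4 CPM (log2 change 2.13, SE 0.33, adjusted p = 0.0125). Of 8 plasmacytoid genes tested, 4 rose, against 9.34% called higher among all genes. Siglech and Spib, 2 of the 4, had no UMI in skin and could only rise. Siglech was at 13.2 and 17.9 CPM against 0 and 0, at least 5.89-fold higher (adjusted p = 0.0223). None of the 4 was still called without Cd207 cells. Of 13 macrophage genes tested, 5 rose and 2 fell, of which 1 and 1 were still called. Slpi was the one that rose, at 313 and 349 CPM against 21.1 and 5.76 CPM (log2 change 4.44, SE 0.46, adjusted p = 0.005), and 3153 of its UMIs in fascia came from the 47 Xcr1 or Clec9a cells and 2157 from the other 1000.

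**Figure D4:**
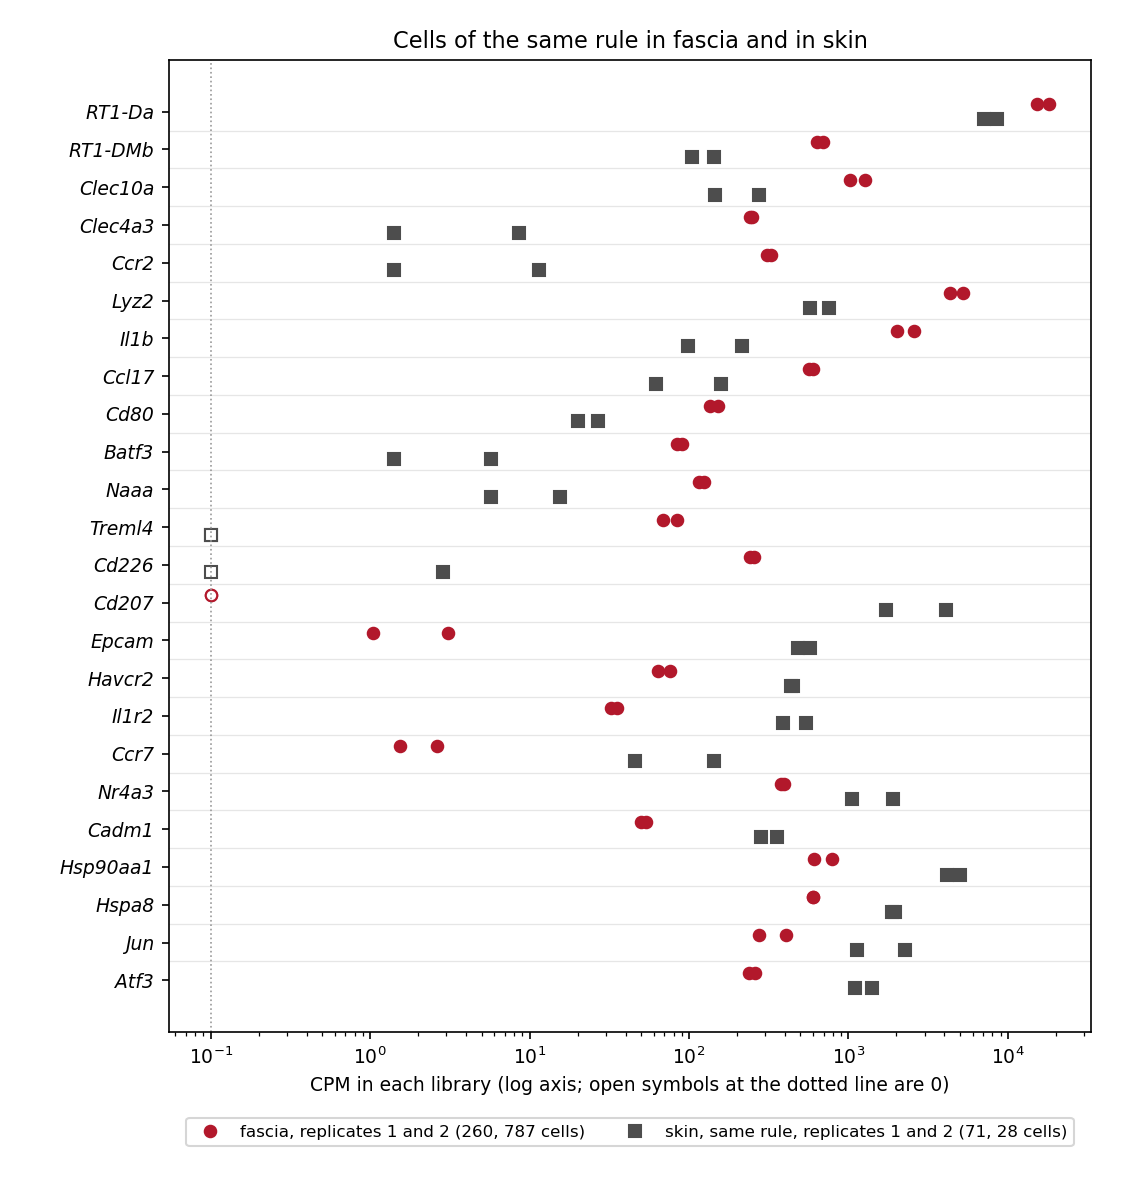
CPM (log axis) of 24 genes in the cells of the rule in 2 fascia and 2 skin libraries, 1 symbol per library, open symbols for 0. Ccr2, Lyz2 and Il1b lie higher in both fascia libraries, and Cd207, Ccr7 and Hsp90aa1 lie higher in both skin libraries.

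Heat shock genes, which encode chaperones, were lower in fascia. Of 9 heat shock genes tested, 6 fell and none rose, against the 11.7% called lower among all genes. All 6 were still called without Cd207 cells, where 386 of 9965 genes were called lower. The chaperone genes Hsp90aa1 and Hspa8 were at 793 and 611 CPM against 5012 and 4175 CPM (log2 change -2.69, SE 0.26, adjusted p = 0.005) and at 602 and 600 against 1972 and 1884 CPM (log2 change -1.65, SE 0.21, adjusted p = 0.00756). Of 15 immediate early genes tested, 4 fell and none rose, and the 4 were still called. Jun was at 404 and 275 CPM against 1132 and 2265 CPM (log2 change -2.28, SE 0.39, adjusted p = 0.0158), and Atf3 at 238 and 259 against 1094 and 1398 CPM (log2 change -2.29, SE 0.23, adjusted p = 0.005). The same lists were high in the skin libraries as a whole: heat shock genes summed to 18991 and 13024 CPM in the other skin cells, 4944 and 4900 CPM in the other fascia cells, 16459 and 16545 CPM in the skin cells of the rule and 5069 and 4188 CPM in the Flt3 dendritic cells. Immediate early genes summed to 18388 and 24291 CPM in the other skin cells and to 8318 and 8938 CPM in the other fascia cells. They summed to 11678 and 19704 CPM in the skin cells of the rule and to 8116 and 6840 CPM in the Flt3 dendritic cells. The part of the tissue-wide level in these calls was not tested.

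Single genes picked by the size of their fitted change, whose order the counts do not settle, included on the higher side Treml4, a receptor gene of myeloid cells, at 84.1 and 68.5 CPM against 0 and 0 (at least 25.5-fold higher, adjusted p = 0.00507). Jchain was at 69.4 and 68.7 CPM against 0 and 0 (at least 24.3-fold higher, adjusted p = 0.005) and was at 2213 CPM in the plasmacytoid-like group. The serotonin receptor gene Htr7 was at 47.1 and 63.3 CPM against 0 and 0 (at least 20.9-fold higher, adjusted p = 0.00727). Hs3st3a1, a heparan sulfate sulfotransferase gene, was at least 16.7-fold higher, Gpm6b at least 10.1-fold, Il16 at least 9.87-fold and the cell cycle gene Ube2c at least 8.15-fold. Cd226, an activating receptor gene of lymphocytes, was at 256 and 242 CPM against 0 and 2.88 CPM, a ratio of 260 on 1 skin UMI (95% counting interval 46.6 to 10257, adjusted p = 0.0034). Il18rap, the accessory chain of the IL-18 receptor, had a ratio of 91.8 (16.5 to 3630), Cyth4 of 93.5 (16.8 to 3697), Adgre1 of 68.3 (12.2 to 2702) and Olr1585, an olfactory receptor gene of a family with near copies, of 90.5 (16.2 to 3577). The Ube2c call was lost without fascia replicate 2 and without the Xcr1 or Clec9a cells, and the Adgre1 call without skin replicate 1. Treml4, Jchain, Htr7, Hs3st3a1, Cd226, Il18rap, Cyth4 and Olr1585 were still called without Cd207 cells. Without cells holding Cd207 or Epcam only Cd226 of these 8 was still called (adjusted p = 0.0344), with adjusted p from 0.111 (Jchain) to 0.191 (Hs3st3a1) for the others.

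Those lower in fascia included Cd207, at 0 and 0 against 4079 and 1709 CPM (at least 17175-fold lower, adjusted p = 0.00476). Nrg1, a growth factor gene, was at 0 and 0.0851 CPM against 168 and 1674 CPM, a ratio of 10334 on 1 fascia UMI (95% counting interval 1849 to 408763). Hpgds, the prostaglandin D synthase gene, was at 0 and 0.255 CPM against 211 and 222 CPM, a ratio of 1117 (377 to 5457). Dsg1, a desmosome gene of keratinocytes, was at 0 and 0 against 137 and 60.5 CPM (at least 581-fold lower). Fcgbp, Tdo2, Slc38a4, Rbp2, Cd52, Cyp2c11, Clec4f and Gzmf had no UMI in fascia and were at least 118-fold to 408-fold lower, with Cyp2c11 and Gzmf in gene families with near copies. Of the 7 Langerhans genes tested, 5 fell and 3 were still called without Cd207 cells. One of these was Epcam, at 1.04 and 3.06 CPM against 573 and 481 CPM (log2 change -7.77, SE 0.5, adjusted p = 0.00229). Epcam is also a gene of other epithelial cells, and of the 9 keratinocyte genes tested 9 fell and 9 were still called. Nrg1, Dsg1 and Fcgbp were still called without Cd207 cells, and Hpgds and the genes with no UMI in fascia other than those did not pass the filter on low counts there.

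**Figure D5:**
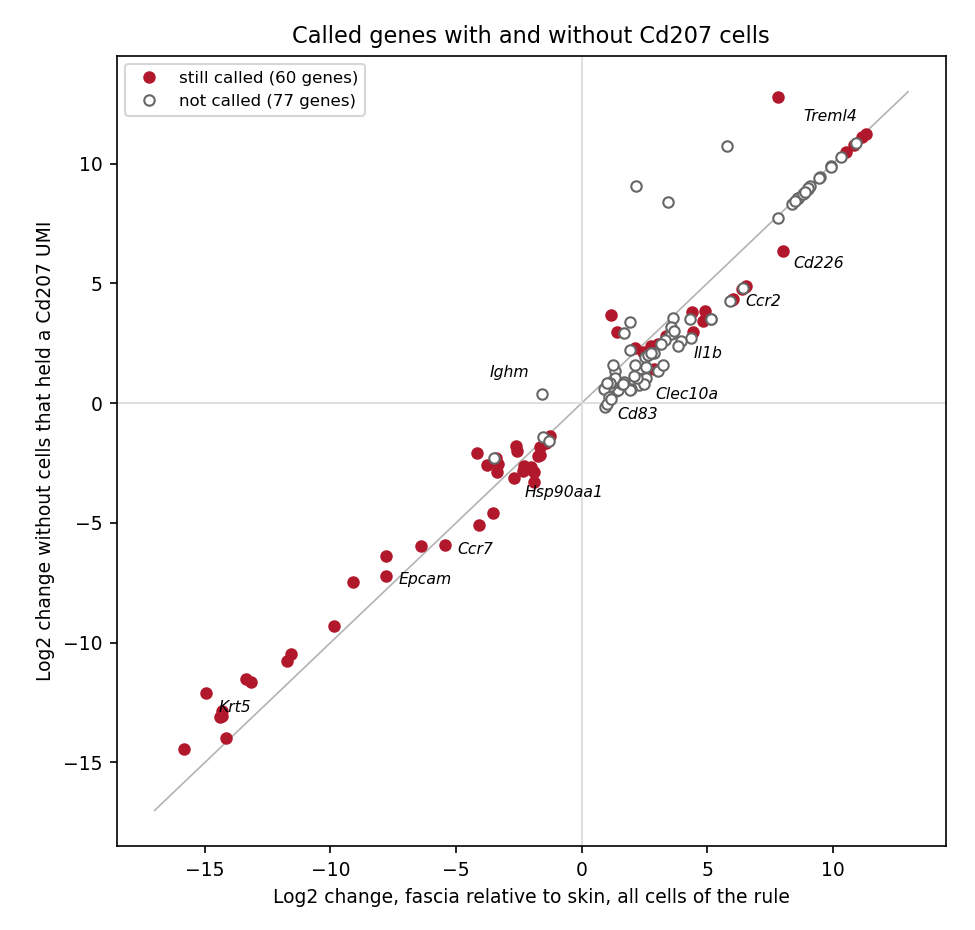
Log2 change (fascia over skin) of 137 called genes from the lists and the single genes, with all cells of the rule (horizontal axis) and without cells holding a Cd207 UMI (vertical axis); filled points were still called (60 genes). Ccr7 and Hsp90aa1 lie as far from 0 or farther without those cells, Ccr2 and Il1b lie nearer to 0 but above it, and Cd83 crosses it.

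Genes of other cells moved with the tissue too. Fibroblast genes summed to 3011 and 966 CPM in the Flt3 dendritic cells against 428 and 308 CPM in the skin cells of the rule, and 5 of 7 tested rose. None of the 5 was still called without Cd207 cells, with adjusted p from 0.073 (Col3a1) to 0.188 (Dpt). Without doublet-marked cells 4 of the 5 calls were kept, and Col1a2 had a log2 change of 0.77 (adjusted p = 0.311), from 2.65 (adjusted p = 0.0186) with them. Haemoglobin genes summed to 364 and 393 CPM against 12.7 and 20.2 CPM, and both tested rose. Without Cd207 cells Hba-a2 was still called (adjusted p = 0.0373) and Hbb-b1 was not (adjusted p = 0.112). In fibroblast-gated fascia cells Hba-a2 was at 348 and 308 CPM, close to its 330 and 307 CPM in the Flt3 dendritic cells, where it exceeded skin by a log2 change of 4.38 (SE 0.31, adjusted p = 0.00282). Of 18 cell cycle genes tested, 4 rose and none fell, against 9.34% called higher among all genes. Of the 4, Ube2c had no UMI in skin and could only rise. None of the 4 was still called without Cd207 cells. The part of these other cells in the calls above was not tested.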

How the data were processed

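Counts were the authors' deposited whole-number UMI counts per gene and barcode for 4 10x 3' libraries, with 30560 genes, 7162 of them without a symbol. The submitters' processing notes name Cell Ranger 6.0.1, STAR, mRatBN7.2 and GRCh38.p13, while the file headers name Cell Ranger 7.0.0. Whether introns were counted is not given in the sources used here. The members and the gene lists were chosen with earlier results of these data known. Of 394 list genes, 364 matched a symbol. Doublets were marked, not removed, with Scrublet in Scanpy 1.11.5; for both skin libraries, where it marked under 0.5%, the top 0.8% of scores per 1000 cells were marked instead. Groups came from Leiden clustering (leidenalg 0.10.2, resolution 0.8, 1500 variable genes, 20 components, 15 neighbours). Counts of the cells of the rule were summed per library, filtered with filterByExpr, scaled by TMM and tested, fascia against skin, with edgeR 4.0.16 in R 4.3.3, without the 9 genes of the rule being reported; DESeq2 1.42.0, other filters, other thresholds of the rule, the replicate block and leaving out each library were alternatives. Shares were tested by exact permutation (SciPy 1.17.1). Fold bounds for a tissue at 0 use a floor of 3 UMIs over the tissue. Genes named beyond the lists were the 25 with the largest ratio over other fascia cells, the 12 with the largest ratio in each direction of the Xcr1 or Clec9a split (both at 50 CPM or more), and 12 called genes in each direction at 20 CPM or more in the higher tissue whose libraries did not overlap; of each rule the text gives those whose values it describes. On simulated counts for this comparison (10037 genes), the test found 3% of 2-fold and 60% of 4-fold changes with 2 false calls. Same-numbered libraries deviated with a correlation of -0.13, so the numbers were not taken as pairs. Some results are not reported here.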

Additional observations from a re-analysis of the deposited data

How the results depend on the processing

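The count of called genes (2230) was 2354 with DESeq2, 2227 with RLE scaling, 3155 without the filter on low counts, 1516 without doublet-marked cells and 2181 without the Xcr1 or Clec9a cells. Leaving out 1 library gave 1244 to 3387. It was 951 with at least 2 Flt3 UMIs, 1080 of 4872 tested with cells thinned to 2000 UMIs, 521 without cells holding Cd207 and 58 (6 higher and 52 lower) without cells holding Cd207 or Epcam; these 4 settings test fewer cells, reads or genes. Of the calls, 44.5% were higher in fascia, against 25.9% without Cd207 cells and 10.3% without Cd207 or Epcam cells. With the replicate block 1791 genes were called and with crossed numbers, chosen after the data were seen, 2285; the block ended 13 of 149 calls on listed or named genes. Calls were lost and directions turned without Cd207 or Epcam cells for Apoe (1.56), Cd83 (-0.24), Ighm (0.09), RT1-DOa (-0.02), S1pr1 (-0.52) and Tap1 (-0.48), and without Cd207 cells for Cd83 (-0.16), Ighm (0.38) and Tap1 (-0.02); the cause was not tested. Of 149 called listed or named genes, 137 could be tested without Cd207 cells, 134 in the same direction and 60 called. The share difference of 6.96 points ran from 3.26 to 10.7 when 1 library was left out. The Xcr1 or Clec9a share difference (4.15 points) was 0.508, 1.85 and 2.2 points at 1000, 2000 and 4000 UMIs a cell and 3.46 to 4.83 with 1 library left out. Skin cells of the rule number 99, so low genes there were not detectable at this depth.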
